A study of Mus musculus with 10 samples.

Results

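The 10 genes described here encode proteins that coat lipid droplets (LDs), shape them, fill them with triglyceride and release fatty acids from them: Plin2, Plin3, Bscl2, Dgat1, Dgat2, Pnpla2, Lipe, Abhd5, Mgll and G0s2. They were taken by symbol from the 47340 genes of the deposited expression table, where each has 1 row. All 10 reached a mean of at least 1 FPKM (a read level scaled to transcript length and library size) in FL or in KO islets and were tested, among 13065 tested genes.

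RNA was sequenced from pancreatic islets of 10 male mice fed chow and aged 12 wk, 5 in each group, with 1 library per mouse. FL mice carried FIT2 alleles flanked by loxP sites (FIT2 fl/fl); the labels give their genotype as wild type and their titles call them Flox. KO mice (βFIT2KO) carried the same floxed alleles and the transgene of the line B6.Cg-Tg(Ins2-cre)25Mgn/J, in which rat insulin promoter sequence drives Cre, so that FIT2, the endoplasmic reticulum protein encoded by Fitm2, was deleted in β cells. Islets of both groups were kept overnight in culture medium after isolation, and they hold other cell types besides β cells. Islets with Cre and without floxed FIT2 are not among the 10 libraries, so Cre and the deletion cannot be told apart. The question addressed is how transcripts of the droplet and lipolysis genes compare between islets with and without FIT2 in β cells.

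An LD is a core of triglyceride and sterol ester under a single layer of phospholipid, to which perilipins and other proteins bind. The droplet starts in the endoplasmic reticulum, where the DGAT enzymes add the last fatty acid of triglyceride, FIT2 and seipin act at the site where the droplet forms, and perilipins then cover its surface. Lipolysis runs in steps, with adipose triglyceride lipase first, hormone-sensitive lipase next and monoglyceride lipase last. In β cells, LDs store fatty acids, and lipids released from them can take part in insulin secretion.

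The deleted gene was checked first. Fitm2 ranged from 15.5 to 37.1 FPKM in FL (median 16.95) and from 4.301 to 9.127 FPKM in KO (median 7.75), with no overlap. On the log2(FPKM + 1) scale, which is used for every log2 fold change (KO minus FL) given here, it fell by 1.58 ± 0.28 (SE; limma, Benjamini-Hochberg adjusted p = 0.00228, n = 5 per group). The β cell markers Slc2a2, Pdx1, Mafa, Nkx6-1, G6pc2, Ucn3, Slc30a8 and Glp1r were present in every library, and their summed level was 2748 to 3474 FPKM among FL mice and 1920 to 2664 FPKM among KO mice. Ins1, Ins2, Gcg and Iapp are listed at 0 in all 10 libraries, and a value of exactly 0 may therefore stand for a level that could not be estimated. Levels of one library summed to between 627084 and 675470 FPKM over all genes. The table holds no read counts and the depth of each library is unknown here. The labels number the mice 1 to 5 in each group, and values are given below in that order.

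Of the 10 genes, Plin2 rose and Dgat2 fell in KO islets at an adjusted p of 0.05, and the other 8 did not pass. The share called was 20% of the 10 genes, against 25.5% of all tested genes. By direction, 9.05% of all tested genes were higher and 16.5% lower in KO, and 1 of the 10 genes was called in each direction. The calls over all genes were 1183 higher and 2150 lower, and 1544 higher and 1685 lower after median ratio rescaling. FL and KO values did not overlap for the same 2 genes, as for 19.1% of all tested genes. These shares lie near or below the background, so the number of calls is no result about the group. Log2 fold changes lay above 0 for 5 of the 10 genes and below 0 for 5, with a median of 0.03, where the median of all tested genes was −0.06.

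**Figure D1:**
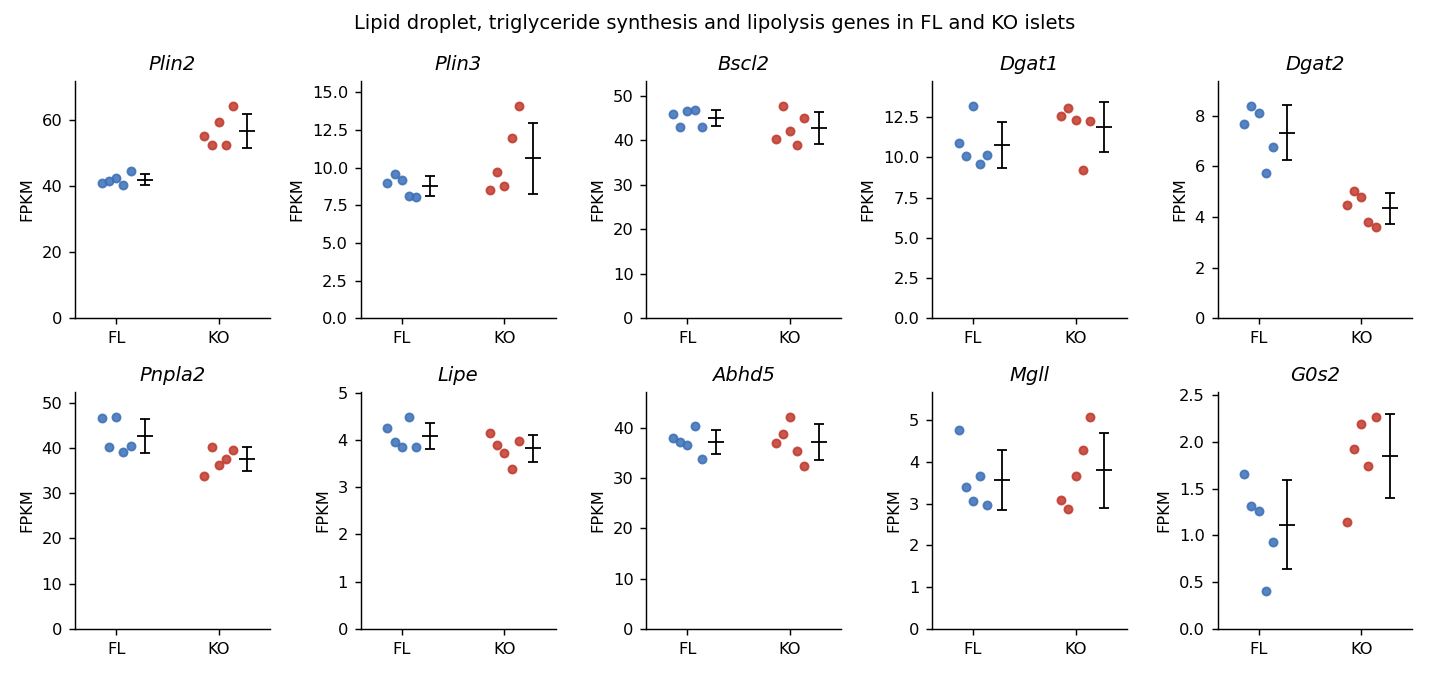
FPKM of each of the 10 genes in 5 FL and 5 KO islet libraries, with points for single mice and, beside them, a short line for the mean with error bars for the SD; each panel has its own linear axis. Plin2 is higher in every KO library (52.3 to 64.0 FPKM) than in any FL library (40.2 to 44.4 FPKM), and Dgat2 is lower in every KO library (3.60 to 5.04 FPKM) than in any FL library (5.72 to 8.36 FPKM).

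Plin2, or perilipin 2, is the droplet coat protein found in most cell types that store lipid, and it is degraded when it is not bound to a droplet. The gene lies on the minus strand at chr4:86648386-86670060 (GRCm38). Plin2 was at 41.0, 41.5, 42.4, 40.2 and 44.4 FPKM in the FL islets of mice 1 to 5. In KO islets it was at 55.2, 52.3, 59.4, 52.3 and 64.0 FPKM. Every KO library lay above every FL library. The mean rose from 41.9 ± 1.64 to 56.6 ± 5.05 FPKM (SD, n = 5), or by 35.2%. The log2 fold change was 0.42 ± 0.06 (SE), with a 95% interval of 0.29 to 0.56 (adjusted p = 0.000654 from limma), and an exact two-sided permutation test of this gene alone gave p = 0.00794, the smallest that 5 libraries against 5 can give. The rise stayed under 1.5-fold.

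Plin3, or TIP47, is a perilipin that is stable in the cytosol and moves onto newly formed droplets. It lies on the minus strand at chr17:56277476-56292873 (GRCm38). In FL islets of mice 1 to 5 Plin3 was at 8.996, 9.57, 9.18, 8.15 and 8.09 FPKM. In KO it was at 8.53, 9.72, 8.81, 12.0 and 14.1 FPKM. The 2 KO libraries at 12.0 and 14.1 FPKM lay apart from the FL range, and the other KO libraries lay within it or just above it. The mean was 8.80 ± 0.66 FPKM among FL mice and 10.6 ± 2.36 FPKM among KO mice (SD, n = 5). Plin3 did not pass, at a log2 fold change of 0.23 ± 0.12 (SE; 95% interval −0.04 to 0.49) (adjusted p = 0.193 from limma), and its log2 fold change was 0.18 without KO mouse 4 and 0.13 without KO mouse 5.

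The same KO mice, 4 and 5, had the highest summed level of 7 acinar genes among the KO libraries (Cpa1, Prss2, Cela1, Pnlip, Cel, Ctrb1 and Cpb1, which encode digestive enzymes of the exocrine pancreas). That sum was 7569 FPKM in KO mouse 4, 18687 FPKM in KO mouse 5, and 2475 to 4573 FPKM in the other KO mice. In FL it ranged from 3800 to 10066 FPKM, and 0 of the 7 genes was called in either direction. FL mice 1 and 2, with acinar sums of 9987 and 10066 FPKM, had Plin3 at 8.996 and 9.57 FPKM. FL mice 4 and 5 had the lowest acinar sums of the FL mice (3800 and 5131 FPKM). They also had the lowest Plin3 (8.15 and 8.09 FPKM), and FL mouse 2 had the highest value of both. The part of acinar RNA in the Plin3 values was not tested.

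The sequences just upstream of the start sites of the 2 perilipin genes are shown because 1 of the pair passed the test and the other did not. They are the 250 bases before the RefSeq start site, 5′ to 3′ on the gene's own strand, from GRCm38.p6. The windows are chr4:86670060-86670309 for Plin2 and chr17:56290512-56290761 for Plin3, both on the minus strand. The Plin3 window lies inside the span given above for this gene (chr17:56277476-56292873). The sequence before the upstream end of that span is not shown. Capitals mark matches to a CCAAT box (CCAAT, or ATTGG on the other strand) or a GC box (GGGCGG, or CCGCCC).
Plin2: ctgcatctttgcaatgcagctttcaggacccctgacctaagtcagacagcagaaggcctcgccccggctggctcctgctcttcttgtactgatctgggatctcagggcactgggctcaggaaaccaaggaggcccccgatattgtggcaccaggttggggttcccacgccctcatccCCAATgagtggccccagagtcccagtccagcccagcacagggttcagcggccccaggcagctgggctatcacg
Plin3: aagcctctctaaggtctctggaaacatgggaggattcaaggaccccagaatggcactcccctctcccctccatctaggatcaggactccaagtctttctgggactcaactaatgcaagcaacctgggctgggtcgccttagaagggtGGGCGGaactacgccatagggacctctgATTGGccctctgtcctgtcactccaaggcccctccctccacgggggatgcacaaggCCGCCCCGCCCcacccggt

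Plin2 has 1 CCAAT match, which starts 73 bases before the start site on the gene's strand, and no GC box match. Plin3 has 1 CCAAT match on the other strand, 75 bases before its start, and 3 GC box matches, 2 of which overlap by 1 base. Among 32851 windows of this length in the table, 33.9% hold the CCAAT letters and 32.7% the GC box letters on either strand. Of the 10 genes, 8 were matched in the table, and Dgat1 and Dgat2 were not.

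Bscl2 encodes seipin, which sits in the endoplasmic reticulum where droplets form and supports their growth. It lies on the plus strand at chr19:8837467-8848683 (GRCm38), where the annotation also has Gng3 on the opposite strand (0.244 FPKM among FL mice and 0.218 FPKM among KO mice, means of 5) and AC129217.1, a protein-coding gene, on the same strand. AC129217.1 was not matched to a value here, so reads of the shared stretch may count for either gene and the Bscl2 level is uncertain to that extent. Bscl2 was at 46.0, 43.0, 46.5, 46.8 and 42.9 FPKM among FL mice and at 40.2, 47.6, 42.2, 38.9 and 45.0 FPKM among KO mice. The 2 groups overlapped, and KO mouse 2 had the highest value of all 10 libraries. The mean was 45.0 ± 1.91 FPKM among FL mice and 42.8 ± 3.55 FPKM among KO mice (SD, n = 5). The log2 fold change was −0.07 ± 0.06 (SE; 95% interval −0.21 to 0.06; adjusted p = 0.398 from limma).

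DGAT1 and DGAT2 are unrelated enzymes that catalyse the same last step, the joining of a fatty acid to diacylglycerol. DGAT1 stays in the endoplasmic reticulum, and DGAT2 can also sit on the surface of the droplet. Dgat1 lies on the minus strand at chr15:76502015-76511953 and Dgat2 on the minus strand at chr7:99153658-99182719 (GRCm38).

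Dgat2 was at 7.68, 8.36, 8.11, 5.72 and 6.76 FPKM in FL islets of mice 1 to 5. In KO islets it was at 4.45, 5.04, 4.78, 3.82 and 3.60 FPKM. Every KO library lay below every FL library, the closest being FL mouse 4 and KO mouse 2. The mean fell by 40.8%, from 7.33 ± 1.08 to 4.34 ± 0.61 FPKM (SD, n = 5). On the log2 scale it fell by 0.64 ± 0.11 (SE; 95% interval −0.87 to −0.40; adjusted p = 0.00161 from limma), with an exact permutation p of 0.00794. Among the 10 genes, Dgat2 was the one whose change was both called and at least 1.5-fold.

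Dgat1 was at 10.9, 10.1, 13.2, 9.58 and 10.2 FPKM among FL mice and at 12.6, 13.1, 12.3, 9.22 and 12.3 FPKM among KO mice. KO mouse 4 had the lowest value of all libraries, and the other 4 KO libraries lay within the FL range. The mean was 10.8 ± 1.42 FPKM among FL mice and 11.9 ± 1.53 FPKM among KO mice (SD, n = 5). Dgat1 did not pass, at a log2 fold change of 0.13 ± 0.10 (SE; 95% interval −0.09 to 0.35; adjusted p = 0.385 from limma). It was 0.21 without KO mouse 4 (adjusted p = 0.101 from limma) and 0.20 without FL mouse 3 (adjusted p = 0.160 from limma). The 95% intervals of the Dgat1 and Dgat2 log2 fold changes do not overlap.

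Within single libraries, the ratio of Dgat2 to Dgat1 (both in FPKM) was 0.597 to 0.830 in FL, with a median of 0.664. In KO it was 0.294 to 0.414, with a median of 0.385. This ratio and the ratios below were chosen after the values of the genes had been seen, and they are given as a description without a test. A ratio within a library does not depend on how that library was scaled, and the 2 groups did not overlap.

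Islet RNA is a mixture, and fewer cells of a type and less RNA per cell cannot be told apart in it. Of 8 β cell markers, 6 were called lower in KO and 0 higher, and their summed level overlapped in no library between groups. The sum of α cell markers was also lower without overlap, at 430 to 644 FPKM among FL mice and 285 to 425 FPKM among KO mice, with Ttr, which makes up most of that sum, called lower and Gcg listed at 0. Duct markers summed to 449 to 527 FPKM among FL mice and 363 to 420 FPKM among KO mice. That sum was made up almost wholly of Krt7, which was called lower (451 ± 34.9 to 356 ± 26.0 FPKM, SD, n = 5). Cftr was called higher, from 0.037 ± 0.018 FPKM among FL mice to 2.13 ± 0.31 FPKM among KO mice (SD, n = 5). It entered the test only through its KO mean, so its call is not read as a result about duct cells. Of 2 δ cell markers, Sst was called lower. Of 6 macrophage markers, 2 were called higher (Cd68 and Lyz2) and 0 lower, with a sum of 119 to 145 FPKM among FL mice and 172 to 207 FPKM among KO mice. Of 4 endothelial markers, 3 were called higher, with a sum of 105 to 122 FPKM among FL mice and 126 to 171 FPKM among KO mice. Stellate cell and fibroblast markers were called higher in 4 of 4 tested, at a sum of 15.0 to 22.0 FPKM among FL mice and 28.01 to 34.4 FPKM among KO mice. These sums differ between the groups in the direction of Plin2 (macrophage, endothelial and stellate) or of Dgat2 (β cell, α cell and duct). Within a group the order of the libraries was shared in part. KO mice 2 and 3 had the highest β cell sums (2605 and 2664 FPKM) and Dgat2 (5.04 and 4.78 FPKM) of their group. KO mice 4 and 5 had the lowest (sums of 1920 and 1989 FPKM, Dgat2 at 3.82 and 3.60 FPKM). FL mouse 4 had the highest β cell sum (3474 FPKM) and the lowest Dgat2 of the FL libraries (5.72 FPKM). The stellate sum and Plin2 were both lowest in KO mouse 2 and highest in KO mouse 5. They were also both lowest in FL mouse 4 and highest in FL mouse 5. KO mouse 2 had the highest macrophage sum (207 FPKM) and the lowest Plin2 of the KO libraries (52.3 FPKM). The part of other cell types in the 2 results was not tested. Of 7 adipocyte markers, Adipoq, Retn and Cfd are listed at 0 in all 10 libraries, Lep reached at most 0.0139 FPKM, Plin1 at most 0.00789 FPKM and Cidec at most 0.322 FPKM. The one adipocyte marker tested, Fabp4, was called higher (adjusted p = 0.0164 from limma), and the sum of the 7, nearly all of it Fabp4, was 8.42 to 19.6 FPKM among FL mice and 19.6 to 29.9 FPKM among KO mice. Among KO mice Fabp4 had the same order as Plin2, from mouse 2 (19.4 FPKM) to mouse 5 (29.6 FPKM). Among FL mice both genes were lowest in mouse 4, and the order of the other mice differed.

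**Figure D2:**
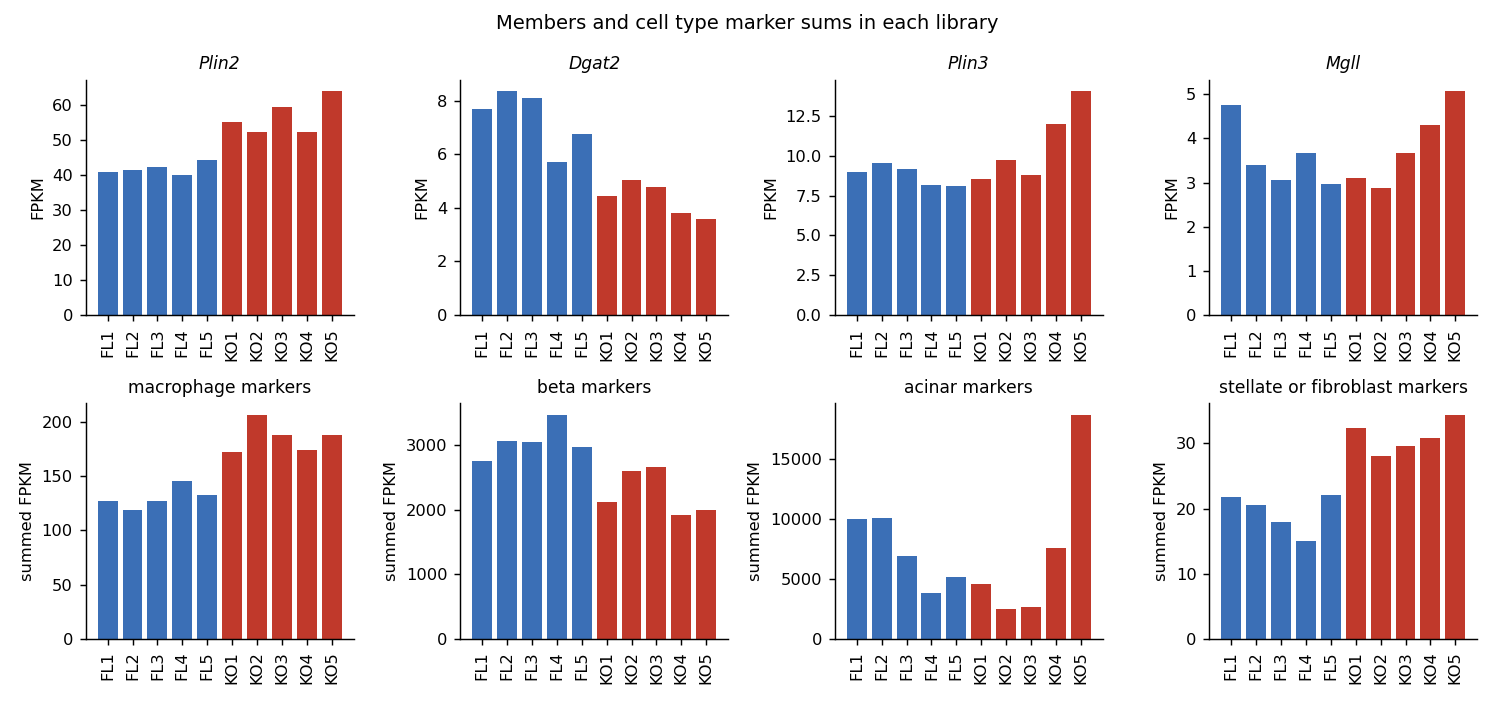
Bars give, for each FL (blue) and KO (red) islet library, the FPKM of Plin2, Dgat2, Plin3 and Mgll (top row) and the summed FPKM of macrophage, β cell, acinar and stellate or fibroblast markers (bottom row), on linear axes from 0. FL and KO bars do not overlap for Plin2, Dgat2 and the macrophage, β cell and stellate sums, and KO mouse 5 has the highest acinar sum (18687 FPKM), Plin3 and Mgll.

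Pnpla2 encodes adipose triglyceride lipase, the enzyme of the first step of lipolysis. It lies on the plus strand at chr7:141455198-141460743 (GRCm38). Pnpla2 was at 46.7, 40.2, 46.8, 39.0 and 40.4 FPKM among FL mice and at 33.7, 40.3, 36.1, 37.6 and 39.5 FPKM among KO mice. KO mouse 2 lay inside the FL range, KO mouse 5 did as well, and the other 3 KO libraries lay below the lowest FL library. The mean was 42.6 ± 3.80 FPKM among FL mice and 37.4 ± 2.65 FPKM among KO mice (SD, n = 5). The log2 fold change was −0.18 ± 0.07 (SE), with a 95% interval of −0.33 to −0.03, and Pnpla2 did not pass over all tested genes (adjusted p = 0.0817 from limma), while the exact permutation test of this gene alone gave p = 0.0476. It passed in 1 of 23 alternatives, with sample weights (log2 fold change −0.24, adjusted p = 0.0206 from limma), and the adjusted p over the alternatives ranged from 0.0206 to 0.284.

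Abhd5 encodes CGI-58, the activator of adipose triglyceride lipase, and lies on the plus strand at chr9:122351608-122381524 (GRCm38). It was at 38.1, 37.2, 36.6, 40.5 and 33.8 FPKM among FL mice and at 36.9, 38.8, 42.2, 35.5 and 32.4 FPKM among KO mice. The 2 ranges covered almost the same values. The mean was 37.2 ± 2.43 FPKM among FL mice and 37.2 ± 3.64 FPKM among KO mice (SD, n = 5). The 95% interval of the log2 fold change ran from −0.16 to 0.15 (adjusted p = 0.971 from limma), and the sign of the estimate changed in 8 of 23 alternatives.

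G0s2 encodes a small inhibitor of adipose triglyceride lipase. It lies on the minus strand at chr1:193272161-193273217 (GRCm38), where Lamb3 stands on the opposite strand (1.33 FPKM among FL mice and 1.17 FPKM among KO mice, means of 5), and whether strand was used in counting is not given in the sources used here. G0s2 was at 1.66, 1.32, 1.27, 0.408 and 0.927 FPKM in FL. In KO it was at 1.14, 1.93, 2.19, 1.74 and 2.27 FPKM. KO mouse 1 lay within the FL range, and the other 4 KO libraries lay above the highest FL library. The mean was 1.11 ± 0.47 FPKM among FL mice and 1.85 ± 0.45 FPKM among KO mice (SD, n = 5). The log2 fold change was 0.45 ± 0.18 (SE; 95% interval 0.06 to 0.84), which did not pass over all tested genes (adjusted p = 0.0874 from limma), with an exact permutation p of 0.0476. Without KO mouse 1 it passed (log2 fold change 0.55, adjusted p = 0.0494 from limma), and over all alternatives the adjusted p ranged from 0.0494 to 0.187. Since G0s2 is low, the pseudocount of 1 lowers its log2 fold change, which was 0.76 with a pseudocount of 0.1.

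The ratio of Pnpla2 to its inhibitor G0s2 was 28.2 to 95.6 in FL (median 37.0) and 16.5 to 29.6 in KO (median 20.9). The 2 groups overlapped, through KO mouse 1. Pnpla2 relative to its activator Abhd5 was 0.963 to 1.28 in FL and 0.857 to 1.22 in KO, with broad overlap.

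Lipe encodes hormone-sensitive lipase, which acts mainly on diacylglycerol and sterol esters. It lies on the minus strand at chr7:25379527-25398710 (GRCm38), where 4732471J01Rik stands on the opposite strand (0.184 FPKM among FL mice and 0.152 FPKM among KO mice, means of 5). Lipe was at 4.25, 3.96, 3.85, 4.49 and 3.86 FPKM among FL mice and at 4.15, 3.90, 3.73, 3.40 and 3.98 FPKM among KO mice. The groups overlapped, with FL mouse 4 highest and KO mouse 4 lowest. The mean was 4.08 ± 0.28 FPKM among FL mice and 3.83 ± 0.29 FPKM among KO mice (SD, n = 5). On the log2 scale the difference was −0.07 ± 0.06 (SE; 95% interval −0.21 to 0.07; adjusted p = 0.434 from limma).

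Mgll encodes monoglyceride lipase, which splits the last fatty acid from glycerol. It lies on the plus strand at chr6:88724412-88828360 (GRCm38). Mgll was at 4.76, 3.39, 3.07, 3.67 and 2.98 FPKM among FL mice and at 3.10, 2.88, 3.67, 4.295 and 5.07 FPKM among KO mice. The groups overlapped over most of their range, and KO mice 4 and 5 were the highest of their group, as for Plin3 and the acinar genes. The mean was 3.58 ± 0.72 FPKM among FL mice and 3.80 ± 0.90 FPKM among KO mice (SD, n = 5). The log2 fold change was 0.06 ± 0.14 (SE; 95% interval −0.24 to 0.37; adjusted p = 0.773 from limma) and changed sign without KO mouse 5. The ratio of Lipe to Mgll was 0.893 to 1.30 in FL and 0.784 to 1.36 in KO.

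**Figure D3:**
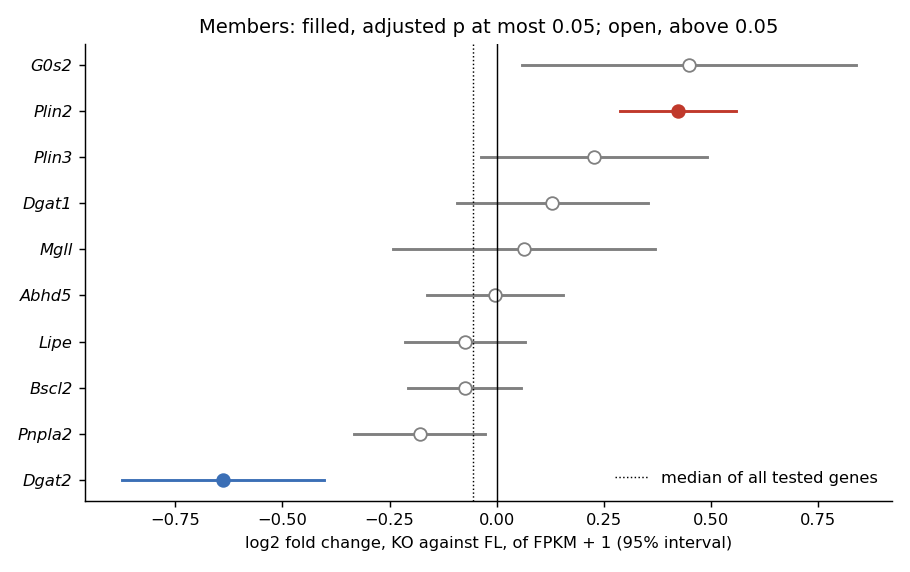
Log2 fold change (KO minus FL, on the log2(FPKM + 1) scale) of the 10 genes, with 95% intervals from limma as horizontal lines, called genes filled, and the median of all tested genes as a dotted line. The intervals of Plin2 (0.29 to 0.56), G0s2 (0.06 to 0.84), Pnpla2 (−0.33 to −0.03) and Dgat2 (−0.87 to −0.40) leave out 0, and Plin2 and Dgat2 passed the adjusted threshold.

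Levels of the 10 genes, compared as FPKM, fell into tiers. In FL islets Bscl2, Pnpla2, Plin2 and Abhd5 formed the highest tier, with means from 37.2 to 45.0 FPKM, and each overlapped its neighbour in that order. Dgat1 came next, then Plin3 and Dgat2, which overlapped each other. Lipe and Mgll overlapped below them, and G0s2 was lowest in all 10 libraries. In KO islets Plin2 was the highest of the 10 genes in all 5 libraries, against 1 of 5 FL libraries, and its lowest KO value (52.3 FPKM) lay above the highest Bscl2 value in KO (47.6 FPKM). Dgat2 ranked 7 in every FL library, and in KO it overlapped with Lipe and ranked 7, 7, 7, 8 and 9. The ratio of Plin2 to Pnpla2, coat protein to lipase, was 0.878 to 1.10 in FL (median 1.03) and 1.30 to 1.64 in KO (median 1.62), with no overlap. Plin2 relative to Plin3 was 4.33 to 5.49 in FL and 4.37 to 6.75 in KO, and these ranges overlapped.

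Among mice of one genotype the 10 genes varied with little in common. After the group means were removed, the 45 pairs had Pearson correlations from −0.64 to 0.73 over the 10 libraries, and none was above 0.8 or below −0.8. Pnpla2 and G0s2 gave the highest value (r = 0.73, Spearman's rho = 0.62, r = 0.65 without the 2 libraries farthest from the median of Pnpla2). Plin3 and Mgll gave r = 0.66, which was 0.37 without the 2 libraries farthest from the median of Plin3. The points share the scaling of each library, and the values are a description.

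The tested genes with the pattern most like that of Dgat2 over the 10 libraries, by Pearson correlation of log2(FPKM + 1), were Cys1 (r = 0.97), Hivep2 (r = 0.97) and Kcnh8 (r = 0.97). These correlations include the FL to KO difference that all 4 genes share. Cys1 was at 6.66 to 7.78 FPKM among FL mice and 5.33 to 6.47 FPKM among KO mice, Hivep2 at 6.24 to 6.80 FPKM among FL mice and 4.62 to 5.46 FPKM among KO mice, and Kcnh8 at 1.52 to 1.89 FPKM among FL mice and 1.11 to 1.38 FPKM among KO mice.

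Other genes of the same pathways were listed in 4 groups with 56 genes in all, of which 38 were tested. Of these, 8 were called higher in KO, 3 lower and 27 were not called, which is 28.9% called against 25.5% of all tested genes, and their median log2 fold change was 0.01. The split was 11 higher and 3 lower with median ratio rescaling, 8 and 6 with sample weights, and 8 and 5 without KO mouse 3.

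Of 16 further droplet coat and assembly genes, 9 were tested, 1 rose and 0 fell (11.1% called, median log2 fold change 0.09). Hsd17b11, a short-chain dehydrogenase that sits on droplets, rose from 26.5 ± 2.13 to 32.8 ± 1.595 FPKM (SD, n = 5; log2 fold change 0.30 ± 0.06 SE; adjusted p = 0.00432 from limma). Every KO value of Hsd17b11 lay above every FL value. The other perilipins Plin1, Plin4 and Plin5, the CIDE genes Cidea, Cideb and Cidec, and Fitm1, the relative of Fitm2, stayed below 0.723 FPKM in every library and were not tested. Plin2 and Plin3 were thus the perilipins above the filter in these islets. Acsl3, which activates fatty acids at forming droplets, was at 24.5 ± 1.54 FPKM among FL mice and 19.6 ± 4.36 FPKM among KO mice (SD, n = 5) and did not pass (adjusted p = 0.0730 from limma).

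Of 16 genes of triglyceride and sterol ester synthesis upstream of or beside the DGAT step, 12 were tested, 2 were called higher and 2 lower (33.3%, median log2 fold change −0.06). Soat1, which esterifies cholesterol for storage in droplets, was at 25.8 to 33.5 FPKM among FL mice and 58.6 to 74.5 FPKM among KO mice. The mean rose 2.14-fold, from 30.1 ± 3.22 to 64.5 ± 6.74 FPKM (SD, n = 5; log2 fold change 1.08 ± 0.09 SE; adjusted p = 1.01e-05 from limma). Agpat9, also named Gpat3, an acyltransferase of the first step of glycerolipid synthesis, was low, at 0.543 ± 0.03 FPKM among FL mice against 1.14 ± 0.48 FPKM among KO mice (SD, n = 5; adjusted p = 0.0433 from limma). It entered the test only through its KO mean, so that its call is no support for the list, and without KO mouse 5 it was not tested. The call was lost in 10 of 21 alternatives. Agpat2 and Agpat3, acyltransferases that make phosphatidic acid, both fell. Agpat3 fell from 157 ± 9.06 to 130 ± 13.9 FPKM (SD, n = 5; adjusted p = 0.0193 from limma). Agpat2 fell from 22.7 ± 1.41 to 18.8 ± 2.17 FPKM (SD, n = 5; adjusted p = 0.0221 from limma), and its call was lost in 7 of 23 alternatives. The lipins Lpin1, Lpin2 and Lpin3, which make the diacylglycerol that DGAT enzymes use, were not called, with log2 fold changes from −0.09 to 0.04.

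Of 12 further lipase genes and their partners, 9 were tested, 4 rose and 1 fell. That is 55.6% called with a median log2 fold change of 0.14, against 25.5% (9.05% higher, 16.5% lower) and a median of −0.06 over all tested genes. This list was chosen with earlier results of these data known, so its share of calls is no result about the list. Lipa, the lysosomal acid lipase, was at 11.9 to 15.1 FPKM among FL mice and 18.3 to 22.6 FPKM among KO mice, and its log2 fold change was 0.56 ± 0.07 (SE; adjusted p = 0.000392 from limma, n = 5 per group). Nceh1, a neutral cholesterol ester hydrolase, rose from 21.7 ± 2.47 to 29.3 ± 2.34 FPKM (SD, n = 5; adjusted p = 0.00333 from limma). Aqp7, the channel through which glycerol leaves cells, rose from 1.98 ± 0.72 to 4.43 ± 0.97 FPKM (SD, n = 5; adjusted p = 0.00490 from limma). Fabp4, a carrier of fatty acids in adipocytes, macrophages and endothelium, rose from 14.4 ± 4.07 to 24.4 ± 4.41 FPKM (SD, n = 5; adjusted p = 0.0164 from limma), with overlap. Lpl, the lipase that works on lipoproteins outside cells, fell from 85.2 ± 9.31 to 62.8 ± 11.7 FPKM (SD, n = 5; adjusted p = 0.0168 from limma), with KO mouse 3 at 83.3 FPKM. An exact Wilcoxon rank test of Lpl alone gave p = 0.0556, while its limma call held in the other 22 of the 23 alternatives tried for single genes. Lipa, Nceh1 and Fabp4 are also used by macrophages, whose markers Cd68 and Lyz2 were higher in KO, and the part of macrophages in these values was not tested.

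Of 12 PPAR receptors, coactivator and target genes, 8 were tested, 1 rose and 0 fell (12.5% called, median log2 fold change −0.02). Ucp2, a mitochondrial carrier, rose from 196 ± 6.31 to 234 ± 18.0 FPKM (SD, n = 5; log2 fold change 0.25 ± 0.06 SE; adjusted p = 0.00799 from limma). Plin2 and Ucp2 are both known targets of these receptors. Pparg itself was at 28.4 ± 1.63 FPKM among FL mice and 28.2 ± 1.64 FPKM among KO mice (SD, n = 5; adjusted p = 0.918 from limma), and Cpt1a, Pdk4, Acaa2 and Acadvl, which serve fatty acid oxidation and fuel choice, were not called.

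**Figure D4:**
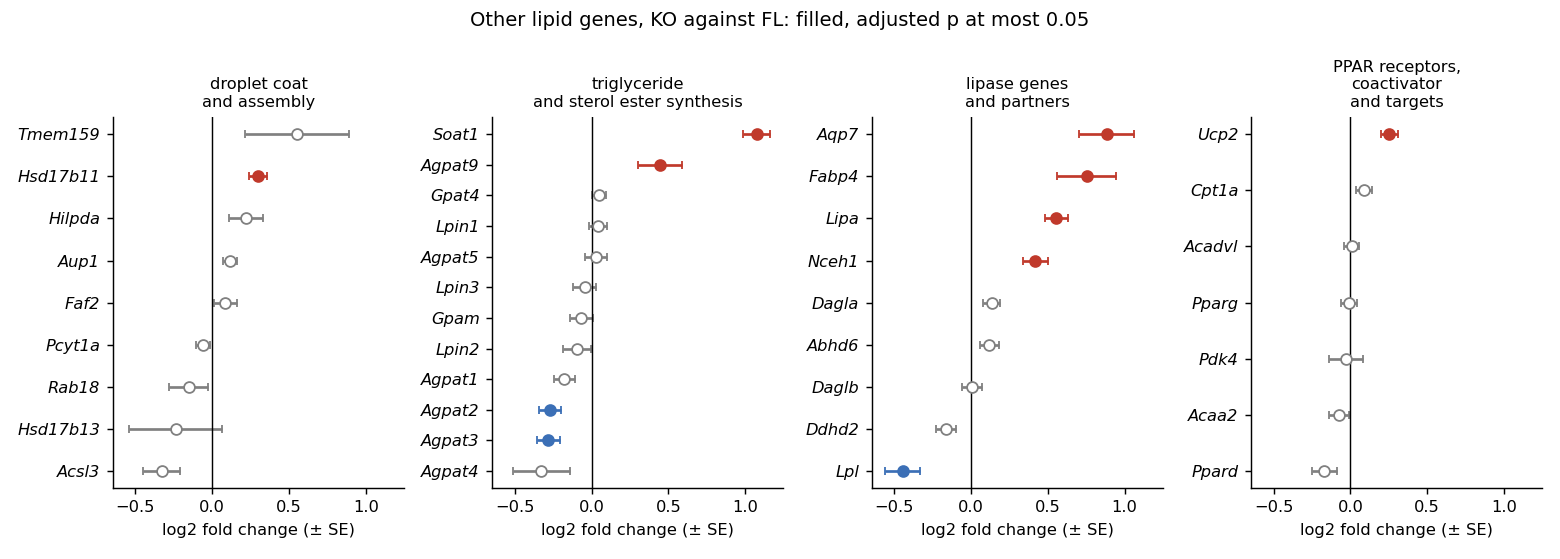
Log2 fold change (KO minus FL, on the log2(FPKM + 1) scale) of 37 of the 38 tested genes in the 4 related lists, as points ± SE, with called genes filled (red higher, blue lower). Soat1 lies farthest to the right at 1.08, and Lpl is the lowest of the called genes at −0.44.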

How the data were processed

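Islet RNA of 5 FL and 5 KO mice was sequenced by the authors as stranded polyA libraries (single reads of 75 nt). The authors deposited 1 table of FPKM, already normalised for transcript length and library size; the submitters' processing notes name STAR 2.5.2a, Cuffnorm 2.2.1 and mm10. Counts of reads are not used here, so relative depth and counting error are not given.

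FPKM were compared on log2(FPKM + 1) with limma 3.58.1 in R 4.3.3 (lmFit, eBayes with trend, no covariate) over the 13065 genes whose mean reached 1 FPKM in either group, with Benjamini-Hochberg adjustment over all of them and calls at 0.05. The pseudocount understates changes of low genes. Exact two-sided permutation tests used each gene alone. The study describes 5 mice per group, and p-values measure the spread between them. Coordinates come from GENCODE M21 (GRCm38) and upstream sequences from RefSeq (GRCm38.p6). Tables and plots used matplotlib 3.10.9, scipy 1.17.1, numpy 2.4.6 and pandas 2.3.3 under Python 3.11.15, and the fit was tested on simulated data.

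The genes named are the 10 members, called genes of the 4 related lists, Fitm2 and the 3 genes most like the called member with the largest change. Values of other genes are given where a count or a comparison needed them. The members and lists were chosen with earlier results of these data known. The counts include 1 gene of the related lists that is not reported here. Alternatives were other pseudocounts, filters and scalings, other limma settings, sample weights, the replicate number as a block, an exact Wilcoxon rank test, a 1.5-fold threshold, and each mouse left out in turn.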

Additional observations from a re-analysis of the deposited data

Results flagged for a closer look

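In KO islets, Dgat1 in mouse 4 stood apart from the other 4 mice, at 9.22 FPKM against 12.3 to 13.1 FPKM, a gap of 0.783 of the group's whole range. Lpl in KO mouse 3 stood apart at 83.3 FPKM against 53.9 to 60.6 FPKM (0.773 of the range). Ucp2 in FL mouse 4 stood apart at 185 FPKM against 197 to 199 FPKM (0.845 of the range). These are 3 of 44 groups of 5 libraries that were examined, where chance alone marks about 1 in 20, or 2.2.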

How the results depend on the processing

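Plin2 and Dgat2 passed in all 23 alternatives each, with log2 fold changes of 0.38 to 0.49 and −0.75 to −0.59. When a 1.5-fold change was also required, 1 of the 10 genes (Dgat2), 3 genes of the related lists and 639 of all genes (349 higher, 290 lower) passed. The sign of Abhd5 turned with median ratio rescaling (log2 fold change 0.043), quantile normalisation (0.064), TPM (0.038) and sample weights (0.017), and without single mice it ranged from −0.050 to 0.042, where that of Mgll ranged from −0.026 to 0.15; the cause was not tested. Median ratio rescaling, quantile normalisation and TPM moved the median of all genes from −0.06 to between −0.02 and −0.01, and calls over all genes were 1544 higher and 1685 lower, 1494 and 1708, and 1386 and 1528. Lipe, Mgll and G0s2 have no value under the filter of 5 FPKM, which they did not reach. With the replicate number as a block, 2 of the 10 genes, 9 genes of the lists and 2368 of all genes were called. Mice with the same number did not deviate together in expression (correlations from −0.10 to 0.003). This check cannot tell whether the numbers pair the mice by litter or by day, which the labels do not give. FPKM hold no depth, which limits what can be said of G0s2 and other genes near 1 FPKM.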

Other observations

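Pnpla3, a relative of Pnpla2 known for its activity on droplets, lay under the filter at 0.476 to 1.02 FPKM among FL mice and 0.0809 to 0.378 FPKM among KO mice, with no overlap. Without a filter its log2 fold change was −0.44 (adjusted p = 0.0180 from limma). Ppargc1a, a coactivator of PPAR receptors, was at 0.920 ± 0.26 FPKM among FL mice and 0.469 ± 0.10 FPKM among KO mice (SD, n = 5; without a filter, adjusted p = 0.0224 from limma). These were the 2 of the 18 untested genes of the related lists that passed without a filter. Over all genes, 3129 of 24792 passed without a filter, but these include the 13065 genes above the filter. The share among genes under the filter was not counted, so the count of 2 is not read as a result about the lists.

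Tmem159, also named Ldaf1, encodes the partner of seipin at forming droplets. It varied widely among FL mice, at 104, 29.95, 72.1, 23.6 and 41.4 FPKM, and little among KO mice, at 58.1 to 75.3 FPKM. It was not called (adjusted p = 0.261 from limma), and the spread among FL mice was not examined further.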
